A study of Homo sapiens with 8 samples.

Results

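The regions called for SMAD2 and for TEAD4 in WA09 human embryonic stem cells treated with the solvent DMSO for 4 h were compared over chromosomes 1 to 22. Members were all regions of both lists on these chromosomes, 403674 for SMAD2 and 273415 for TEAD4, which makes 677089 of the 972037 regions in the 3 lists analysed for the series. WA09 is a single established line, kept here on Matrigel with MEF-conditioned medium, and no genetic change is named in the labels. Chromatin was fixed with formaldehyde, sheared by sonication and precipitated with a TEAD4 or a SMAD2 antibody, and each group is 1 library. The TEAD4 list of cells that received SB431542, an inhibitor of the activin, Nodal and TGF-β type I receptors, for the same 4 h at 10 µM is given beside the DMSO lists where it bears on them (249361 regions on these chromosomes). Input DNA, IgG and the SMAD2 precipitate of SB431542 cells were not analysed here.

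SMAD2 carries the activin, Nodal and TGF-β signal. The activated receptors phosphorylate it, it joins SMAD4 and moves into the nucleus, and there it is brought to its sites largely by partner factors such as FOXH1. In human embryonic stem cells this pathway helps to keep the pluripotent state and also starts mesendoderm formation when it is raised. TEAD4 binds DNA directly through its TEA domain and activates genes together with YAP or TAZ, the effectors that the Hippo kinases hold back. It is known in the early embryo for its part in forming the trophectoderm.

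The lists give positions and no heights, and their row order was read as the authors' ranking, strongest first, which no label states. Regions were wider towards the top of both lists: the median width was 249 bp for SMAD2 and 299 bp for TEAD4 in the first 10% of rows, and 99 bp for both in the last 10%. With 1 library per group no value has a replicate error and no test of the conditions was possible, so intervals in brackets are 95% Wilson intervals that cover counting error only and treat regions as independent. Read depth is unknown, and a region missing from a list was not called at an unstated threshold. Fewer cells with a bound site and weaker binding per cell cannot be told apart in such bulk samples. Positions are on hg19. Gene annotation and sequence of that build were not used here, so that places are named by chromosome, arm and position.

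At the scale of single regions, most SMAD2 and TEAD4 regions did not overlap. The regions are short and cover little of the genome, 64.1 Mb for SMAD2 and 56.8 Mb for TEAD4. The overlap that random placement would give was not computed, so the shares below do not show that the factors avoid each other. Of the SMAD2 regions, 21337 (5.29%) overlapped a TEAD4 region by at least 1 bp, and 382337 did not. Of the TEAD4 regions, 21265 (7.78%) overlapped SMAD2, and 252150 did not. The overlaps formed 21374 pairs. In 53.1% of the pairs (52.5 to 53.8%) the regions were staggered, with a median of 49 bp in common. In 34.4% (33.7 to 35.0%) the SMAD2 region lay inside a wider TEAD4 region, and in 8.43% (8.07 to 8.81%) the TEAD4 region lay inside SMAD2. Only 871 pairs (4.08%, 3.82 to 4.35%) had the same start and end. In both lists every start fell on a multiple of 50 bp. The same start and end thus means the same only to this grid, and 49 bp in common is about 1 step of it. The TEAD4 regions met by SMAD2 had a mean width of 235 bp against 205 bp for the others, and the SMAD2 regions met by TEAD4 172 bp against 158 bp. The part of width in the overlap was not tested.

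At the scale of loci joined within 1 kb, adjacency was more common than overlap. Regions of either list with a gap of at most 1 kb were joined, which gave 497695 loci. SMAD2 alone made up 263588 of them (53.0%, 52.8 to 53.1%), TEAD4 alone 153838 (30.9%, 30.8 to 31.0%), and 80269 held both (16.1%). Among the loci with both, 59342 (73.9%, 73.6 to 74.2%) held SMAD2 and TEAD4 side by side with no overlapping pair. These loci took in 25.6% of all SMAD2 regions and 36.9% of all TEAD4 regions. Loci of 1 factor were mostly single regions: 87.8% of the SMAD2 loci and 89.4% of the TEAD4 loci had 1 region. The joining distance decided how many loci held both, since 54.3% did with gaps of up to 5 kb and 9.86% with gaps of up to 500 bp. A joining distance of 1 kb is also wider than most regions and so favours neighbours without overlap. The share side by side that random placement would give was not computed, so the 73.9% does not show a preference for adjacency.

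The densest loci held both factors. Loci were joined from both lists together, so a chain of many regions would nearly always hold both. Only 15 loci held 10 or more regions and 3 held 12. The first of these 3 lay on chromosome 1 at chr1:14359401-14366249, with 8 SMAD2 and 4 TEAD4 regions in 6849 bp. The next was chr6:18000601-18006149, with 7 SMAD2 and 5 TEAD4 regions, and the last chr18:6708201-6714549, with 6 of each. The first SMAD2 row in the chromosome 1 locus was row 107606 and its first TEAD4 row was row 35680, while the chromosome 6 locus had SMAD2 row 18379 and TEAD4 row 31480. A locus with a SMAD2 region near the top of its list was chr6:56826901-56833299, where 5 SMAD2 regions, the first at row 352, lay within 6399 bp together with 6 TEAD4 regions, the first at row 75576. TEAD4 had the higher rank at chr11:91174951-91179449, with 5 SMAD2 and 6 TEAD4 regions, the first TEAD4 region at row 7033 and the first SMAD2 region at row 34777. At chr3:137325501-137331449, TEAD4 made up 8 of the 11 regions. Across the 10 densest loci with both factors the TEAD4 list of SB431542 cells had between 0 and 2 regions per locus. The loci were picked for their many DMSO regions, so a list not used in the choice would hold fewer. Over 1 Mb windows that list had a median of 93 regions. The low numbers are thus no measure of a loss of TEAD4 under SB431542. The largest loci of a single factor were smaller: chr17:40624751-40629749 held 8 TEAD4 regions and no SMAD2 region in 4999 bp, and the largest SMAD2-only loci held 6 regions each, among them chr22:46640301-46644499 and chr14:38872251-38875149. These single-factor loci were picked for their size after their values were seen.

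Longer stretches with 1 factor alone were mainly stretches of SMAD2, which has the longer list. Read along the chromosomes, the regions alternated in 162801 uninterrupted runs of SMAD2 and 162798 of TEAD4. A SMAD2 run held 2.48 regions on average and a TEAD4 run 1.68. Because runs alternate, their numbers are nearly equal, and the mean follows from the length of each list. Runs of at least 10 regions numbered 2025 for SMAD2 and 80 for TEAD4. A longer list also gives more long runs, and the numbers that list length alone would give were not computed. The longest SMAD2 run, 25 regions over 118 kb with no TEAD4 region between them, lay at chr9:117099001-117217199. It was followed by 24 regions each at chr10:98861551-98984199 and at chr20:59761401-59869999, the latter 3.09 Mb from the end of the long arm, and by 3 runs of 23, among them chr1:3613301-3728399, 3.60 Mb from the end of the short arm. The first SMAD2 rows in these 4 runs were 35662, 27018, 11436 and 10298. The longest TEAD4 run held 16 regions over 35.1 kb at chr1:167162801-167197849, with its first region at row 54422. It was followed by 14 regions each at chr21:10700001-10736299 and chr11:51207851-51237749, with first rows 4830 and 131756. Both of these lay in windows beside empty stretches, which are described below. Among the shorter ones, the TEAD4 run at chr6:158598301-158684199 had 12 regions over 85.9 kb and included row 5728. Of the long SMAD2 runs, 290 (14.3%) lay within 5 Mb of an arm's end, and of the 80 long TEAD4 runs 1 did (1.25%). For comparison, 7.30% of the 1 Mb windows described below lay there.

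Chromosome arms differed in the balance of the factors, and on the 3 arms at the extremes the density of TEAD4 differed more than that of SMAD2. Arms were taken as the sides of the longest stretch inside a chromosome without a region of either list, used as the place of the centromere. The acrocentric chromosomes 13, 14, 15, 21 and 22 were not split in this way. Each was counted as 1 arm and named q, so that 21q here includes regions on both sides of the longest empty stretch of chromosome 21. For each of the 39 arms the share of all SMAD2 regions found there was divided by the share of all TEAD4 regions, and this ratio is called the SMAD2 fold here. It was highest on 22q, at 1.26 (1.20 to 1.32) from 5216 SMAD2 and 2808 TEAD4 regions. It was 1.24 (1.18 to 1.32) on 19p, with 3491 SMAD2 and 1900 TEAD4 regions, and 1.17 (1.12 to 1.23) on 19q. TEAD4 was relatively most frequent on 4q, where the fold was 0.90 (0.88 to 0.92) from 19970 SMAD2 and 15026 TEAD4 regions. The next were 3q at 0.94 (0.92 to 0.97) and 7q at 0.95 (0.92 to 0.97). The interval lay above 1 on 14 arms, below 1 on 7 and included 1 on 18.

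The density of SMAD2 regions was similar on these arms. It came to 148 per Mb on 22q, 142 on 19p and 144 on 4q, with a range over all arms of 125 to 165 and a median of 150. Relative to its median, TEAD4 density differed more between these 3 arms: 79.8 per Mb on 22q and 77.5 on 19p, the lowest values among the arms, against 109 on 4q, the highest, and a median of 103. The TEAD4 list of SB431542 cells did not show the same order. Against it the SMAD2 fold was 0.95 (0.91 to 0.99) on 22q, 1.13 (1.07 to 1.20) on 19p and 1.06 (1.03 to 1.08) on 4q. Both ratios use the same SMAD2 list, and the SB431542 list was made in another way, since 1.97% of its starts, and every start in the DMSO lists, fell on multiples of 50 bp. Treatment and the making of the list cannot be told apart.

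**Figure D1:**
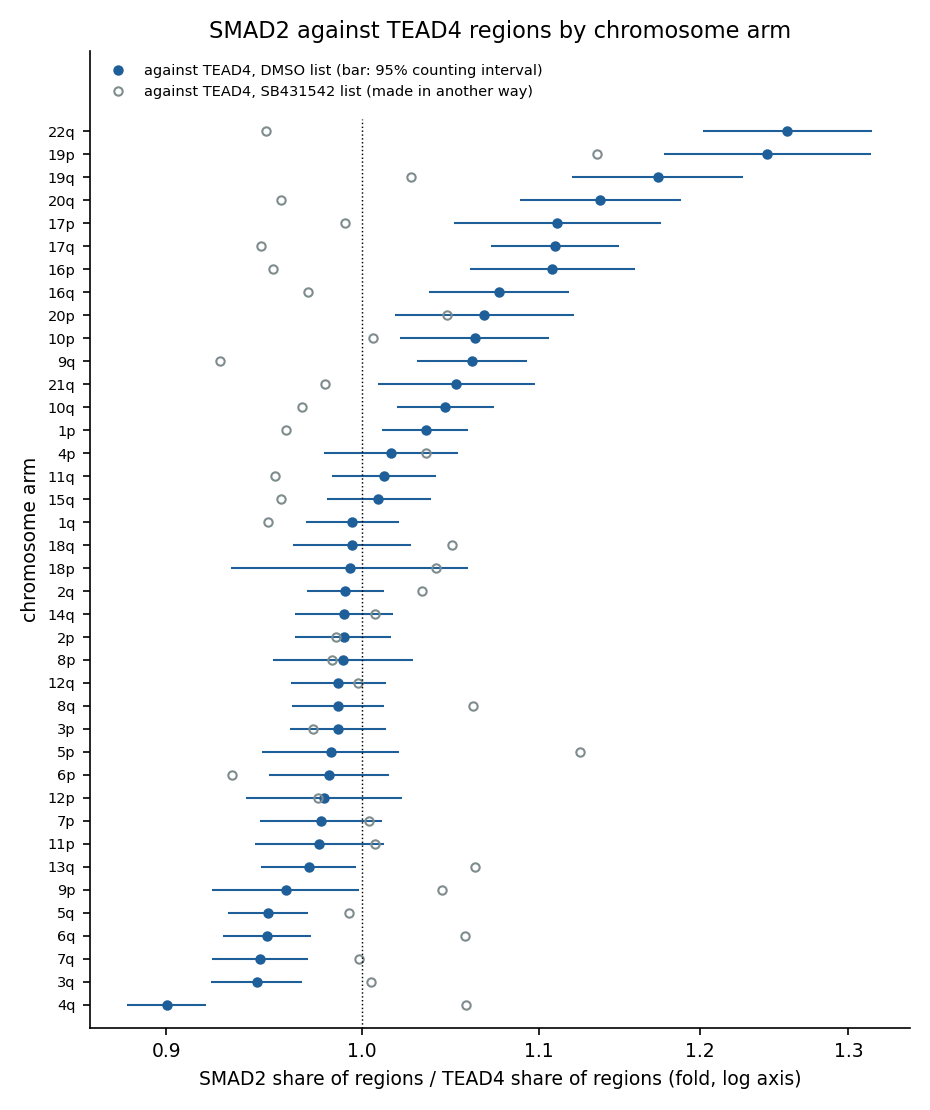
SMAD2 fold by chromosome arm on a log axis: filled points are the ratio of SMAD2 share to TEAD4 share in DMSO cells with 95% counting intervals, open points the ratio against the TEAD4 list of SB431542 cells. Arms 22q and 19p stand at the top with folds of 1.26 and 1.24 and 4q at the bottom with 0.90, while the open points do not follow this order.

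The arms also differed in how often regions were shared, within a narrow range. The share of SMAD2 regions with a TEAD4 partner went from 4.33% (3.70 to 5.05%) on 19p to 6.51% (5.58 to 7.58%) on 18p. The share of TEAD4 regions with a SMAD2 partner went from 6.87% (6.39 to 7.38%) on 13q to 9.55% (8.20 to 11.1%) on 18p. The short arm of chromosome 18 thus ranked first in both directions, with 152 shared regions of each list, and its densities of 152 SMAD2 and 103 TEAD4 regions per Mb were close to the medians. Its intervals exclude the autosomal shares of 5.29% and 7.78%. It was singled out among 39 arms for this value. On all 39 arms the TEAD4 share exceeded the SMAD2 share. This follows from the list lengths, since the shared regions of both lists were nearly equal in number and TEAD4 regions fewer on every arm. With the SMAD2 list cut to the length of the TEAD4 list, the autosomal shares were 5.55% for SMAD2 and 5.54% for TEAD4.

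TEAD4 regions thinned out towards the outer ends of the arms and SMAD2 regions did so much less. Within 2 Mb of an end there were 77.3 TEAD4 regions per Mb, compared with 103 per Mb beyond 40 Mb, and the numbers for SMAD2 were 147 and 145. Between these places SMAD2 density was higher, at 157 per Mb from 5 to 10 Mb and 155 from 10 to 20 Mb. TEAD4 density was 98.8 and 102 per Mb there. From 10 to 20 Mb TEAD4 was thus about as dense as beyond 40 Mb, and the fold differed between these 2 places through SMAD2 density. The SMAD2 fold fell with each step from the end: 1.29 (1.25 to 1.33) within 2 Mb, 1.21 (1.18 to 1.24) from 2 to 5 Mb, 1.08 (1.06 to 1.10) from 5 to 10 Mb, 1.03 (1.01 to 1.04) from 10 to 20 Mb, 0.99 (0.98 to 1.00) from 20 to 40 Mb, and 0.96 (0.95 to 0.96) beyond. The order was seen on most arms. The ratio of SMAD2 to TEAD4 regions was higher in the outer 5 Mb than in the rest of the arm on 36 of 39 arms, with a median quotient of 1.26 and a range of 0.98 to 1.77. The exceptions were 18p, 3p and 1q. TEAD4 density was lower in the outer 5 Mb on 33 arms (median quotient 0.81), SMAD2 density on 14 (median quotient 1.02). Without chromosomes 16, 17, 19, 20 and 22, which hold the 9 arms of highest fold, the outer 2 Mb still had a fold of 1.25. In the SB431542 list TEAD4 had 87.7 regions per Mb within 2 Mb of an end and 88.9 beyond 40 Mb, and the SMAD2 fold against it was 1.04 (1.01 to 1.07) and 1.01 (1.00 to 1.02). Between these places the SB431542 list was denser, with 95.5 regions per Mb from 2 to 5 Mb and 97.5 from 10 to 20 Mb. Its outer 2 Mb were thus also less dense than the neighbouring parts of the arms.

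**Figure D2:**
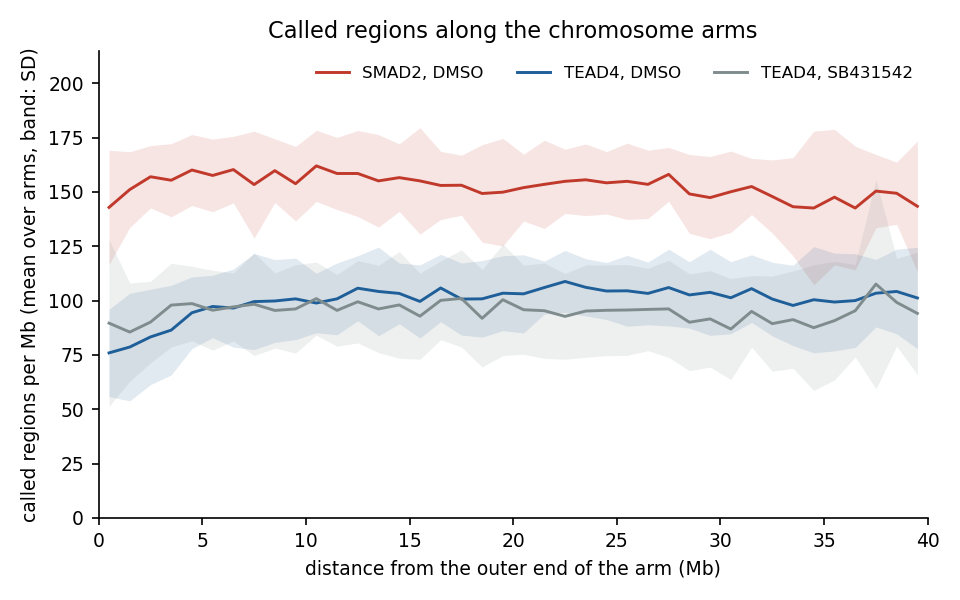
Called regions per Mb by distance from the outer end of the arm, as the mean over the arms long enough (39 at the end) with the SD between arms as a band. TEAD4 of DMSO cells starts at 75.9 per Mb in the outermost Mb, where SMAD2 stands at 143 and TEAD4 of SB431542 cells at 89.6.

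The gradient towards the ends grew steeper down the lists. When only the first 10% of the rows of each list was used, the fold within 2 Mb of an end was 1.02 (0.93 to 1.12), from 1085 SMAD2 and 723 TEAD4 regions, and beyond 40 Mb it was 1.00 (0.98 to 1.02). With the first 50% of rows the fold was 1.11 (1.07 to 1.16) at the ends, 1.09 (1.06 to 1.13) from 2 to 5 Mb and 0.98 (0.97 to 0.99) beyond 40 Mb. With the last 50% of rows it was 1.52 (1.45 to 1.59) at the ends and 0.94 (0.93 to 0.95) beyond 40 Mb. In steps of 10% of the list, the share of TEAD4 regions within 5 Mb of an end went from 6.92% in the first step to 4.47% in the last, and the share of SMAD2 regions from 7.26% to 6.96%. The fold in this outer part rose from 1.05 (0.99 to 1.11) to 1.56 (1.46 to 1.67) between these steps, and its interval lay above 1 from the second step on, at 1.08 (1.01 to 1.14). Arms changed in several ways. In the first 10% of rows the fold was 1.04 (0.91 to 1.20) on 22q, 1.05 (0.89 to 1.25) on 19p, 0.94 (0.82 to 1.08) on 19q and 0.95 (0.89 to 1.02) on 4q. Over the 39 arms it ranged from 0.83 to 1.19, and the interval included 1 on 27, lay above 1 on 7 and below 1 on 5. Arm 17q went from 1.11 over all rows to 0.88 (0.79 to 0.98) in the first 10%, 9q from 1.06 to 0.89 (0.81 to 0.98) and 6p from 0.98 to 0.83 (0.75 to 0.92). Arm 20p went from 1.07 to 1.19 (1.03 to 1.39). The first 10% holds fewer regions, so its intervals are wider.

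**Figure D3:**
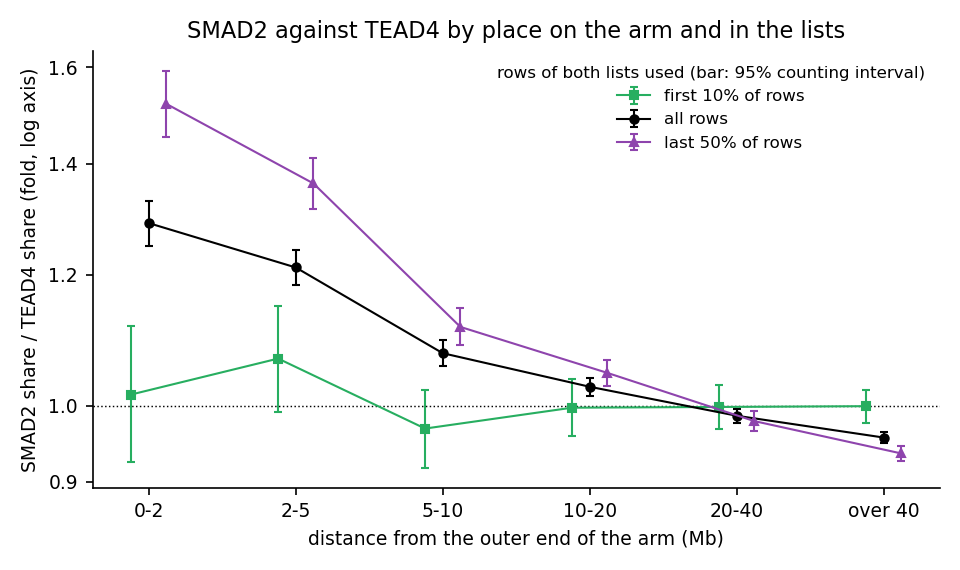
SMAD2 fold by distance from the arm's outer end on a log axis, for all rows, the first 10% and the last 50% of rows of both lists, with 95% counting intervals. The last 50% of rows goes from 1.52 at the ends to 0.94 in the interior, whereas the first 10% stays between 0.97 and 1.07.

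The TEAD4 regions that were called near the ends stood higher in their list and were wider. Within 2 Mb of an end 12% (11.2 to 12.8%) of them belonged to the first 10% of rows, and beyond 40 Mb 9.44% (9.28 to 9.60%) did. Their mean width was 218 bp and 205 bp in these places. The corresponding shares for SMAD2 were 9.46% (8.94 to 10.0%) and 9.86% (9.72 to 10.0%), with mean widths of 161 and 158 bp. TEAD4 regions in the outer 5 Mb were shared with SMAD2 more often than the others, at 8.56% (8.14 to 9.0%) against 7.73% (7.63 to 7.83%). SMAD2 regions there were shared with TEAD4 less often, at 4.68% (4.45 to 4.93%) against 5.33% (5.26 to 5.41%), where TEAD4 regions were also fewer, and the part of their density in this was not tested. For TEAD4 regions of 1 width, 199 bp, the shares were 8.21% (7.48 to 9.01%) and 7.62% (7.43 to 7.81%), and the intervals overlap. For SMAD2 regions of 149 bp they were 4.13% (3.73 to 4.58%) and 5.02% (4.89 to 5.15%), and the intervals do not overlap. For SMAD2 regions of 99 bp, the most frequent of these widths, they were 4.06% (3.70 to 4.45%) and 4.45% (4.34 to 4.56%), and the intervals overlap.

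At the scale of 1 Mb both factors were present nearly everywhere. Of the 2733 windows with any region, 2 held SMAD2 alone, with 3 SMAD2 regions between them, and 0 held TEAD4 alone. The 2698 windows with at least 50 regions of both lists together all held both, with a median of 151 SMAD2 regions (interquartile range 140 to 162) and 103 TEAD4 regions (92 to 113). A window held a median of 8 shared SMAD2 regions (6 to 10), and 6 windows held none. Across the windows the numbers of SMAD2 and TEAD4 regions had a Pearson correlation of 0.44 and a Spearman correlation of 0.19. In the 2558 windows with at least 200 regions of both lists together these fell to 0.058 and 0.062. A cut on the sum of the 2 numbers by itself lowers their correlation, so the drop does not show which windows the relation rested on. All points share the same 2 libraries and an unknown depth.

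Windows past the 1.5-fold limit were more often on the SMAD2 side. A SMAD2 fold above 1.5 was found in 86 windows (3.19% of 2698), here called SMAD2-rich, and a fold below 0.667 in 17 (0.63%), called TEAD4-rich. With these numbers of regions per window, counting error is large, and the interval of the fold included 1 in 2252 windows. Of the others it lay above 1 in 252 (9.34%) and below 1 in 194 (7.19%), a more even split. The SMAD2-rich windows had an ordinary number of SMAD2 regions, with a median of 155, and few TEAD4 regions, with a median of 63 against 103 in all windows. The TEAD4 list of SB431542 cells had a median of 83.5 regions in them and 93 in all windows. Of the 86, 48 (55.8%) lay within 5 Mb of an arm's end, where 7.30% of all windows lie. They were spread over 33 arms. The highest share was on 19p, where 7 of 25 windows were SMAD2-rich, followed by 22q with 6 of 35 and 20q with 5 of 34. In the TEAD4-rich windows the median was 116 SMAD2 and 123 TEAD4 regions. None of the 17 lay within 10 Mb of an arm's end, and 5 touched the 500 kb beside an empty stretch of at least 1 Mb, compared with 1.82% of all windows.

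**Figure D4:**
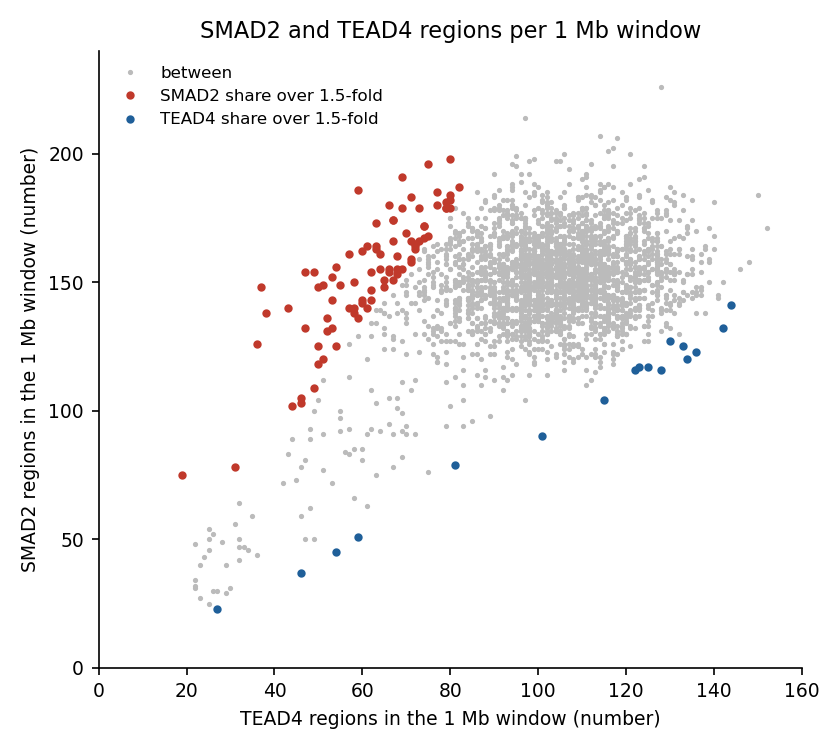
Number of SMAD2 regions against number of TEAD4 regions in each of 2698 windows of 1 Mb, 1 point per window, with the 86 SMAD2-rich windows in red and the 17 TEAD4-rich windows in blue. The red points lie to the left of the main cloud, at TEAD4 counts of 19 to 82, and not above it.

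The window with the highest fold was 79 to 80 Mb of chromosome 17, near the end of 17q, with 148 SMAD2 and 37 TEAD4 regions, a fold of 2.71 (1.89 to 3.88). The TEAD4 list of SB431542 cells had 63 regions there. The window from 3 to 4 Mb of chromosome 1 held 138 SMAD2 and 38 TEAD4 regions (fold 2.46, 1.72 to 3.52). It belonged to a block of 4 neighbouring SMAD2-rich windows from 1 to 5 Mb, with 595 SMAD2 and 214 TEAD4 regions in all. The first 2 windows of chromosome 16 had 126 SMAD2 with 36 TEAD4 regions (fold 2.37, 1.64 to 3.43) and 154 with 47 (2.22, 1.60 to 3.07). Blocks of 4 SMAD2-rich windows also lay at 59 to 63 Mb of chromosome 20, with 579 SMAD2 and 234 TEAD4 regions, and at 137 to 141 Mb of chromosome 9, with 573 and 236. All these blocks lie at the outer ends of their arms. A window of another kind was 19 to 20 Mb of chromosome 14, at the inner end of the only arm examined there, with 75 SMAD2 and 19 TEAD4 regions (fold 2.67, 1.63 to 4.40).

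The windows with the lowest folds lay beside empty stretches. They were 121 to 122 Mb of chromosome 1, with 37 SMAD2 and 46 TEAD4 regions (fold 0.54, 0.35 to 0.84), 51 to 52 Mb of chromosome 11, with 45 and 54 (0.56, 0.38 to 0.84), and 46 to 47 Mb of chromosome 5, with 51 and 59 (0.59, 0.40 to 0.85). The remaining ones were neighbours on chromosome 21. From 10 to 11 Mb there were 90 SMAD2 and 101 TEAD4 regions (0.60, 0.45 to 0.80), and from 11 to 12 Mb 23 and 27 (0.58, 0.33 to 1.00). The SB431542 list had 287 and 179 TEAD4 regions in these windows of chromosome 21, and 35, 36 and 40 in the windows of chromosomes 1, 11 and 5. TEAD4-rich windows away from such stretches included 145 to 146 Mb of chromosome 2, with 141 SMAD2 and 144 TEAD4 regions, and 59 to 60 Mb of chromosome 16, with 132 and 142. This pair was chosen after their values were seen.

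The windows with most shared regions were mostly rich in TEAD4 regions. From 123 to 124 Mb of chromosome 8, 20 of 151 SMAD2 regions overlapped TEAD4 (13.2%, 8.74 to 19.6%), against 5.29% over all autosomes. The window held 125 TEAD4 regions, which covered 2.77% of its length. From 39 to 40 Mb of chromosome 2, 19 of 153 SMAD2 regions were shared (12.4%, 8.10 to 18.6%), and from 174 to 175 Mb of chromosome 4, 19 of 157 (12.1%, 7.89 to 18.1%). The window from 105 to 106 Mb of chromosome 7 had 19 of 177, and that from 105 to 106 Mb of chromosome 10 had 19 of 178. By share, the window from 113 to 114 Mb of chromosome 6 followed with 17 of 130 (13.1%, 8.33 to 20.0%), and from 68 to 69 Mb of chromosome 2 with 18 of 142 (12.7%, 8.17 to 19.1%). These are the extremes of 2698 windows, and their TEAD4 counts were 101 to 135, against a median of 103 and an upper quartile of 113 over all windows. The part of this density in the sharing was not tested.

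The leading regions of the 2 lists lay near each other about as often as other regions lay near leading ones. The autosomes held 971 SMAD2 regions from rows up to 1000, and 33 of them (3.40%, 2.43 to 4.73%) were within 50 kb of one of the first 1000 TEAD4 rows. For all SMAD2 regions the share was 3.51%. With the first 5000 rows of both lists 813 of 4872 SMAD2 regions did so (16.7%, 15.7 to 17.8%), compared with 16.2% of all SMAD2 regions, and for TEAD4 the shares were 17.2% (16.1 to 18.3%) and 16.97%. By window the picture was the same. Of the 762 windows that held one of the first 1000 TEAD4 rows, 28.7% also held one of the first 1000 SMAD2 rows, and 30.3% of all windows did. The windows with most leading rows of 1 factor held 1 to 4 of the other. With the first 5000 rows counted as leading, 33 to 34 Mb of chromosome 11 held 9 SMAD2 rows and 1 TEAD4 row. The windows from 28 to 29 Mb of chromosome 13 and from 235 to 236 Mb of chromosome 2 each held 9 leading TEAD4 rows, with 1 and 2 of SMAD2. The highest number of the other factor, 4 TEAD4 rows beside 8 of SMAD2, was at 183 to 184 Mb of chromosome 1. The mean per window was 1.81 for SMAD2 and 1.75 for TEAD4. Just 4 windows held at least 5 of both, at 125 to 126 Mb of chromosome 10, 74 to 75 Mb of chromosome 14, 60 to 61 Mb of chromosome 18 and 132 to 133 Mb of chromosome 7. These crowded windows were picked after their values were seen.

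Leading regions overlapped the other factor more often, while similar shares of them and of all regions were isolated. Of the SMAD2 regions in the first 10% of rows 6.81% overlapped any TEAD4 region, and 4.87% did in the last 10%. For TEAD4 regions and any SMAD2 region these shares were 10.3% and 4.86%. Regions at the top of the lists were also wider, with the median widths given above, and the part of width in this trend was not tested. A SMAD2 region was called isolated when no TEAD4 region lay within 10 kb, which was the case for 61487 (15.2%). In the first 1000 rows 148 of 971 were (15.2%, 13.1 to 17.6%). Of the TEAD4 regions, 10607 (3.88%) had no SMAD2 region within 10 kb, and 39 of 953 in the first 1000 rows (4.09%, 3.01 to 5.55%). The median distance to the nearest region of the other factor was 3.10 kb for SMAD2 and 1.75 kb for TEAD4, whose neighbours belong to the denser list.

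The first isolated SMAD2 region was row 22, at chr7:158640751-158641199, 15.2 kb from the nearest TEAD4 region and near the end of 7q. Another region of that end, chr7:157557101-157557499 (row 73), was also among the first 10. The others in this group included chr11:109984601-109984899 (row 23), chr14:81380001-81380249 (row 49), and chr6:158936501-158936799 (row 86), which had the largest distance, 25.7 kb. The first isolated TEAD4 region was row 34, at chr7:131290051-131290649, 13.7 kb from SMAD2, followed by chr11:844151-844599 (row 37), 20.5 kb away, and by chr3:76546801-76547199 (row 50). All 10 of the first isolated TEAD4 regions overlapped a TEAD4 region of SB431542 cells, 9 of them within its first 2771 rows, and the remaining one, chr1:11742451-11742799 (row 181), at row 96699. Of the first 10 isolated SMAD2 regions, 2 overlapped that list, at rows 132642 and 54643. That list is itself a TEAD4 list. The share of all regions, or of other leading regions, that overlap it was not computed. These counts therefore cannot be tied to isolation.

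The highest-ranked pairs were spread over 7 chromosomes, and among the first 10 by the sum of their rows 3 lay on chromosome 6. At chr6:149132401-149132799 a SMAD2 region of row 1864 was staggered by 99 bp of overlap with the TEAD4 region chr6:149132151-149132499 of row 2933. On the short arm of that chromosome, the SMAD2 region chr6:55459151-55459399 (row 5350) shared 149 bp with TEAD4 row 1751. At chr6:79311801-79312049 a SMAD2 region of row 4248 lay wholly inside TEAD4 row 3024. A pair on chromosome 16, chr16:21712351-21712799 (row 1796) with TEAD4 row 3551, overlapped by 99 bp, and one on chromosome 11, chr11:65053401-65053699 (row 2024) with row 3615, by 49 bp. The pair with the smallest sum was chr8:42704651-42704899 (row 282), which lay wholly inside TEAD4 row 1743. Likewise, chr17:76361901-76362099 (row 3280) lay inside TEAD4 row 1085. Nested and staggered pairs thus both occurred among the first 10, and staggered pairs were the most frequent kind among all pairs.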

How the data were processed

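Chromatin immunoprecipitation followed by sequencing was done on WA09 cells, 1 library per group. From the authors, 3 deposited lists of called regions were analysed (SMAD2 in DMSO cells, TEAD4 in DMSO and in SB431542 cells), with chromosome, start and end position in bp (no height, p-value or read count); the submitters' processing notes name hg19. The sources used here do not name an aligner, peak caller, threshold, control or depth, so the precision is known only as far as numbers of regions go. Starts were raised by 1 to be 1-based.

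From the deposited positions, Python 3.11.15 with NumPy 2.4.6, pandas 2.3.3, SciPy 1.17.1 and matplotlib 3.10.9 computed overlaps (at least 1 bp), loci (regions joined over gaps of at most 1 kb), arms, distances to the outermost region of either list on an arm, and 1 Mb windows with at least 50 regions of both lists together. Windows past a 1.5-fold difference in share (above 1.5 or below 0.667) were counted. Windows beside empty stretches touched the 500 kb next to a stretch of at least 1 Mb without a region. Intervals of shares are 95% Wilson intervals. The scripts were tested on simulated data. Of the per-sample columns, 0 were left unused.

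Named by rule were the 3 arms with the highest and the 3 with the lowest SMAD2 share, the 5 windows highest and the 5 lowest in fold, the 5 with most shared regions and the 5 with the highest share of them, the 10 loci with most regions of both, the first 10 isolated rows of each list, and the 10 pairs with the smallest sum of rows. Members, lists and rules were chosen with earlier results of these data known. A list of pluripotency, SMAD2 and TEAD4 target genes, and region sequences, were not analysed here. Alternatives were another overlap rule, joining distance, window size, minimum or fold, parts of the lists by row, and regions left out.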

Additional observations from a re-analysis of the deposited data

How the results depend on the processing

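No paired analysis was possible because there is 1 library per group, and for the same reason no library could be left out. The share of SMAD2 regions with a TEAD4 region, and of TEAD4 regions with a SMAD2 region, was 1.72% and 2.54% when 50% of both regions had to overlap, 3.88% and 5.72% for midpoints within 100 bp, 5.11% and 7.53% when the widest 1% of regions was dropped, 3.46% and 5.09% in the first 50% of rows, 0.959% and 1.42% in the first 10% (both lists shortened in each case), and 5.55% and 5.54% with the SMAD2 list cut to the length of the TEAD4 list. The median window moved likewise, to 1.52% and 2.34% with 50% overlap and to 3.77% and 5.48% by midpoints, from 5.19% and 7.55%.

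Loci with SMAD2 alone, TEAD4 alone and both made up 55.6%, 34.5% and 9.86% when joined within 500 bp, 33.3%, 12.4% and 54.3% within 5 kb, 55.9%, 35.7% and 8.49% in the first 50% of rows, 58.8%, 39.3% and 1.961% in the first 10%, and 44.5%, 42.1% and 13.4% with the SMAD2 list cut; without the widest 1%, loci with both made up 15.9%. SMAD2-rich and TEAD4-rich windows numbered 284 and 142 of 5329 at 500 kb, 34 and 5 of 1372 at 2 Mb, 9 and 0 past 2-fold, against 86 and 17; in the first 50% of rows TEAD4-rich windows numbered 63. The first 10% of rows gave no count of windows, because 1 window then held 50 regions.

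The fold within 2 Mb of the arm ends, whose alternatives were all chosen after seeing the data, was 1.29, and 1.24 by base pairs covered, 1.11 in the first 50% of rows, 1.02 in the first 10% and 1.52 in the last 50%. Arm 19q went from 1.17 to 0.942 in the first 10% of rows. Apart from single arms and windows, the other alternatives for shares, counts and the fold at the ends, 26 in all, stayed within the counting interval or within 1.5 times the count. Shorter lists hold fewer regions and so fewer chances to meet, and the cause of the other shifts was not tested. Depth is unknown and limits what absence from a list can mean.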
